A study of Mus musculus with 4 samples.

Results

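Krt5 and Krt13 are keratins, proteins that pair into the intermediate filaments of epithelial cells. Krt5 and Krt13 made up 2 of the 9802 genes named on the arrays and 2 of the 20205 probes, with 1 probe each (transcripts NM_027011 and NM_010662), and both had a value on all 4 arrays. They were taken by gene symbol after their averaged challenge effect in these same arrays had been seen to be low, so that effect, in each air and over both, is described here without a test. A further 20 keratin genes had 1 probe each, and 16 of them had a value on all 4 arrays. These served as the comparison.

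Every array set RNA of challenged mouse lung, from BALB/cJ animals sensitized to ovalbumin and then challenged with it, against a pool of lung RNA from 6 control animals that were not sensitized and breathed the same air. In UCP air (the labels do not spell out UCP) and in particle-free air there were 2 arrays each. Array 1 carried the challenged lung in Cy5, and array 2 was the dye swap. Sensitization and challenge came together, so their effects cannot be told apart. It is not stated whether both arrays of an air share the same RNA or come from different animals. The p-values therefore reflect array-to-array spread, possibly technical in origin. The control pool went with the air, so a difference between the airs cannot be told apart from one between their pools. The standard errors and p-values may hold no spread between pools. The age of the mice is not given in the sources used here. The values are log2 ratios and hold no levels, so the labelled tissue could not be checked by which genes were abundant.

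Values are given as the log2 ratio of challenged to control lung, where -1 is a 2-fold lower signal. The arrays run in one direction relative to each other, and challenged over control is the likely overall direction, which rests on the customary order of the dyes (Cy5 over Cy3) and on genes known to be abundant in allergic lung. One of them, Chil3, a chitinase-like protein of activated macrophages, lay between 5.32 and 5.83. Each array held between 19349 and 19832 values, with medians between -0.07 and 0.02. With so few arrays, the precision of each value is limited by their number.

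Keratin filaments are built from pairs of an acidic type I and a basic type II keratin. Krt5 (type II) pairs with Krt14 (type I) in the basal cells of stratified epithelium and of the trachea and large airways, where basal cells act as progenitors. Krt13 (type I) pairs with Krt4 (type II) in the layers above the basal cells of moist stratified epithelium such as that of the oesophagus and tongue, and in mouse trachea both mark small stratified patches called hillocks. Simple epithelium, including that of the alveoli and of most airway cells, uses Krt7, Krt8, Krt18 and Krt19 instead.

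The promoter windows of both genes are shown because the members were taken as a pair that moved the same way. The windows run from 250 bases before to 50 bases after an annotated start, as RefSeq gives them on GRCm38.p6, and all lie on the minus strand. Krt13 has 2 annotated starts in that table, at chr11:100121517-100121816 and chr11:100120528-100120827, and Krt5 has 1, at chr15:101712856-101713155. Capitals mark matches on either strand to TGANTCA, the AP-1 motif, and to ATAAAAGG, a sequence chosen after the windows were seen. ATAAAAGG can overlap TATAAA, which was also searched.
Krt13, first start: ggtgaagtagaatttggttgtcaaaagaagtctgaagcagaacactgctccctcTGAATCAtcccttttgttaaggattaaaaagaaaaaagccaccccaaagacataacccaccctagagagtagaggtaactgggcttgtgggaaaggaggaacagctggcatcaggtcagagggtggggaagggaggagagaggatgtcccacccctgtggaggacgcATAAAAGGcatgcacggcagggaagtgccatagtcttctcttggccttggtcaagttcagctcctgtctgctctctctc
Krt13, second start: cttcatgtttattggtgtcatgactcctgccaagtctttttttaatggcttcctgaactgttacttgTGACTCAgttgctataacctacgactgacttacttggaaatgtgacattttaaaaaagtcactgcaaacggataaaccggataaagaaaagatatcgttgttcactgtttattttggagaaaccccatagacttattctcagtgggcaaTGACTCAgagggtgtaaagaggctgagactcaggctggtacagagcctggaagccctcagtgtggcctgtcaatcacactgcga
Krt5: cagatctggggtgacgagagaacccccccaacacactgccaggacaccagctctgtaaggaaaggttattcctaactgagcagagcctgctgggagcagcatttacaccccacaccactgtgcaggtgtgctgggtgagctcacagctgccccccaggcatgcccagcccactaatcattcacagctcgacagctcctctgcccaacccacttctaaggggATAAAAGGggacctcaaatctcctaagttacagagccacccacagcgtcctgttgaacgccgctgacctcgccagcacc
The first Krt13 window and the Krt5 window both held ATAAAAGG, beginning 29 bases before the start in each. ATAAAAGG was present in 577 of 32851 promoter windows of the same length, or 1.76%. It was chosen after the Krt13 and Krt5 windows were seen, so that percentage is no test of the shared match. TGANTCA had 1 match in the first Krt13 window and 2 in the second, and it was present in 7.81% of all windows, while the Krt5 window held none. None of these 3 windows held TATAAA (13.6% of all windows) or GCCNNNGGC, the AP-2 motif (16.6%). The Krt14 window, searched likewise and not printed, held none of these sequences. A match describes the letters only.

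Krt13 was lower in challenged lung on every array. Its log2 ratio was -2.79 on array 1 and -2.53 on array 2 of UCP air, against -1.87 on array 1 and -2.59 on array 2 of particle-free air. The 2 airs overlapped, since array 2 of particle-free air lay below array 2 of UCP air. Krt13 averaged -2.66 ± 0.18 in UCP air and -2.23 ± 0.51 in particle-free air (SD, n = 2 each), which is 6.31-fold lower in UCP air and 4.68-fold lower in particle-free air. Over the 4 arrays it averaged -2.44 ± 0.40 (SD, n = 4), which placed it at rank 27 from the lowest among the 9153 named genes with a value on all arrays.

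Krt5 was also lower on every array, and here the airs did not overlap. Its log2 ratio was -3.29 and -2.85 on arrays 1 and 2 of UCP air, against -1.22 and -1.62 on arrays 1 and 2 of particle-free air. The mean was -3.07 ± 0.31 in UCP air and -1.42 ± 0.29 in particle-free air (SD, n = 2 each), or 8.39-fold lower in UCP air and 2.67-fold lower in particle-free air. Its average over the 4 arrays was -2.24 ± 0.98 (SD, n = 4), at rank 33 from the lowest of 9153 genes. Both members were at least 1.5-fold lower on both UCP arrays, as were 3.82% of all genes, and on both particle-free arrays, as were 3.58%. In bulk lung RNA, fewer cells that carry a transcript and less of it per cell cannot be told apart.

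**Figure D1:**
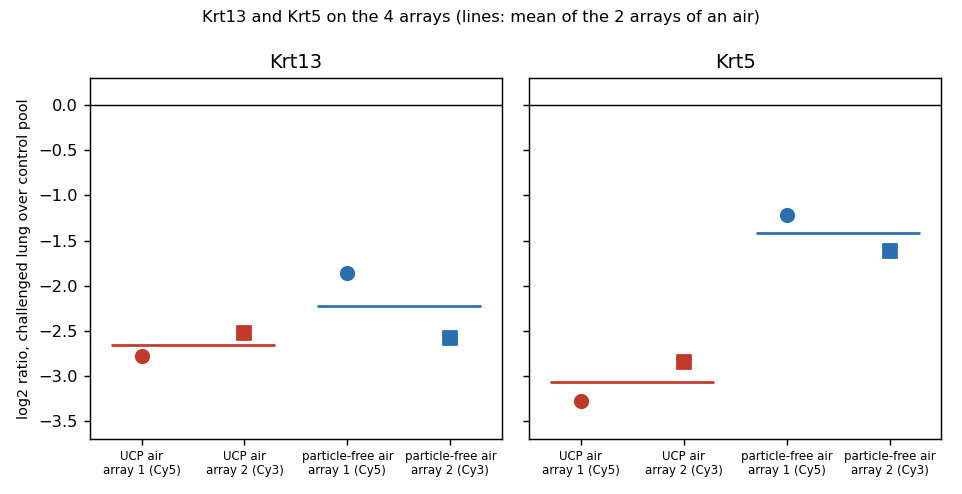
Log2 ratio of challenged lung over control (y axis) for Krt13 (left panel) and Krt5 (right panel) on each array (x axis, UCP air in red and particle-free air in blue, circles for Cy5 and squares for Cy3), with a line at the mean of the 2 arrays of an air. All 8 values lie below 0, and the airs are separate for Krt5 (-3.07 against -1.42) and overlap for Krt13.

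The spread of the members over the arrays differed. Krt13 had an SD of 0.40 over the 4 arrays, beside a median SD of 0.35 over all 9153 genes, whereas the SD of Krt5 was 0.98, above that of 91.7% of genes. Within an air Krt5 was steadier, with an SD of 0.31 in UCP air and 0.29 in particle-free air, where the medians over all genes were 0.23 and 0.30. The larger overall SD of Krt5 thus lay between the airs, which also differed in their control pools, and not between arrays of one air.

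The contrast that had not been used to pick the genes is the difference of the challenge effects, UCP minus particle-free air. For Krt5 it was -1.65 ± 0.35 (standard error of limma's fit over all 18160 probes, unadjusted 95% interval -2.59 to -0.71), with an unadjusted p of 0.00736 and an adjusted p of 0.984 (limma, Benjamini-Hochberg over all probes). Krt5 therefore did not pass the threshold of 0.05. No probe passed in this contrast by limma (0% of 18160), and 722 probes (3.98%) had an unadjusted p under 0.05, 367 of them (2.02%) in the lower direction. Krt13 differed by -0.43 ± 0.38 (standard error, interval -1.47 to 0.60, adjusted p = 0.984 by limma), and its interval holds both no difference and one of more than 2-fold.

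Dye orientation was matched between the airs, so the difference could be read within each dye. For Krt5 it was -2.07 between the 2 Cy5 arrays and -1.23 between the 2 Cy3 arrays, lower in UCP air in both. For Krt13 it was -0.92 between the Cy5 arrays and 0.06 between the Cy3 arrays, so that only the Cy5 pair lay clearly lower in UCP air. Both UCP arrays lay below both particle-free arrays for Krt5 and for 3 of the 16 other keratins measured on all arrays (Krt12, Krt15 and Krt16), against 15.4% of all genes. An exact permutation test of 2 arrays against 2 gave p = 0.333 for Krt5, which is the smallest it can give, and p = 0.667 for Krt13 (two-sided).

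The order of the pair also changed between the airs. Krt5 minus Krt13, both as log2 ratios on one array, was -0.50 and -0.33 on the UCP arrays, against 0.65 and 0.97 on the particle-free arrays. Krt5 was thus the more reduced of the pair on both UCP arrays and the less reduced on both particle-free arrays. The difference between the airs was -1.22, with an exact two-sided permutation p of 0.333, again the smallest possible with 2 arrays against 2.

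Their partner keratins lay low as well, by smaller amounts. Krt14, the type I partner of Krt5, had log2 ratios of -1.74 and -1.09 on the UCP arrays, against -0.77 and -1.65 on the particle-free arrays. It averaged -1.31 ± 0.46 (SD, n = 4, limma adjusted p = 0.169). Krt4, the type II partner of Krt13, had -0.79 and -0.44 on the UCP arrays, against -0.94 and -0.85 on the particle-free arrays, with an average of -0.75 ± 0.22 (SD, n = 4, limma adjusted p = 0.195). Both partners were below 0 on all 4 arrays, and neither passed the threshold.

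Unlike Krt5, Krt14 hardly differed in mean between the airs. Its UCP minus particle-free difference was -0.20 with an interval of -1.46 to 1.06, and it ran in opposite directions in the dyes, at -0.97 between the Cy5 arrays and 0.56 between the Cy3 arrays. For Krt4 the difference was 0.28 (interval -0.55 to 1.11).

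The other basal cell keratins measured, and the injury keratin Krt16, did not share these values. Krt15, a type I keratin of basal cells, lay at -0.36 and -0.22 on the UCP arrays, against -0.12 and 0.71 on the particle-free arrays, and averaged 0.00 ± 0.48 (SD, n = 4). Krt17, a type I keratin of basal and injured epithelium, lay at 0.40 and 0.44 on the UCP arrays, against 0.06 and -0.04 on the particle-free arrays, and averaged 0.22 ± 0.24 (SD, n = 4). Krt16, a type I keratin induced by injury, averaged -0.02 ± 0.30 (SD, n = 4). All 3 thus lay near 0, unlike Krt14 and Krt5.

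Keratins of simple epithelium, the kind that most lung epithelium makes, lay closer to 0 than Krt5, Krt13 and Krt14. Krt18 averaged 0.04 ± 0.27, Krt7 -0.12 ± 0.27, Krt19 -0.44 ± 0.36 and Krt23 -0.65 ± 0.42 (SD, n = 4 each). Krt8, the type II partner of Krt18, had no value on array 2 of particle-free air and lay at 0.30 and 0.40 on the UCP arrays, against 0.45 on the remaining particle-free array. Of the 4 simple epithelium keratins with all values, 2 were below 0 on every array (Krt19 and Krt23), and the median of the 4 was -0.28. As a class they lay no closer to 0 than the keratins of stratified epithelium without Krt5 and Krt13. Those had medians of -0.11 (type I, 8 genes) and -0.05 (type II, 3 genes).

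The keratins of cornified skin varied more. Krt10, a suprabasal type I keratin of epidermis, averaged -0.19 ± 0.63, and Krt2, a type II keratin of late epidermal layers, averaged 0.56 ± 1.41 (SD, n = 4 each), where one particle-free array (array 1) gave 2.58 and the other 3 arrays at most 0.24. Krt1, the type II partner of Krt10, had no value on array 2 of UCP air and lay at 0.22 on array 1 of UCP air, against 1.02 and -1.46 in particle-free air. Krt9, a keratin of footpad skin, lay at -0.11 and 0.39 on the UCP arrays, against -1.05 and -1.55 on the particle-free arrays. Its UCP minus particle-free difference was 1.44 (interval 0.44 to 2.44, unadjusted p = 0.0156, limma adjusted p = 0.984), opposite in sign to that of Krt5.

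The remaining keratins gave no common direction. Krt12, a keratin of the cornea, averaged -0.23 ± 0.33, Krt77 -0.05 ± 0.48, Krt42 -0.04 ± 0.25 and Krt88 0.06 ± 0.60 (SD, n = 4 each). Krt84, a hair and tongue keratin, lacked array 1 of UCP air and lay at 1.28 on array 2 of UCP air, against 2.32 and -0.56 in particle-free air. Krt86, a hair keratin, had values only on the Cy5 arrays, 5.91 in UCP air and -1.85 in particle-free air.

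Over the 16 other keratins with all values, the averaged log2 ratios ran from -1.31 (Krt14) to 0.56 (Krt2) with a median of -0.08, beside -0.01 over all genes. Of these 16, 4 were below 0 on every array (Krt14, Krt4, Krt23 and Krt19), against 14.1% of all genes. At least 1.5-fold lower on all 4 arrays were Krt13, Krt5 and, among the 16 others, only Krt14, against 1.02% of all genes (93 of 9153) and 1.2% of all probes (218 of 18160). The members were picked on this contrast, so only the share of the others, 1 of 16, can be set beside that percentage. By limma, none of the 16 passed in the averaged effect, and 4 had an unadjusted p under 0.05 (Krt14, Krt4, Krt9 and Krt23), all lower. Among all probes 1 (0.00551%) passed limma's adjusted threshold in the averaged effect, and it was higher, so that 0% were lower. At the unadjusted threshold 7.59% of probes were lower, which is 1379 of 18160, and 14% had such a p in either direction.

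**Figure D2:**
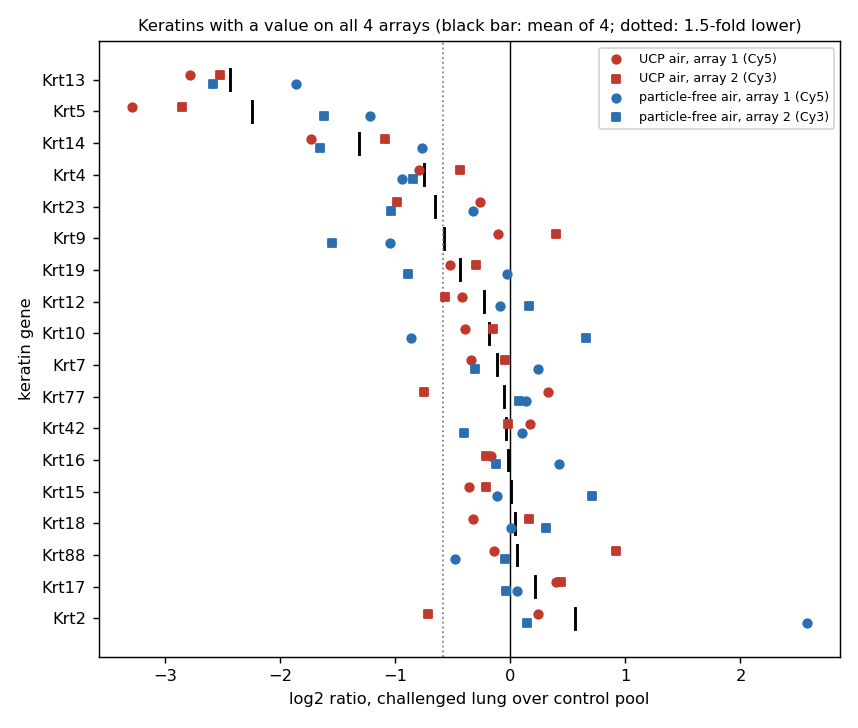
Log2 ratios of challenged lung over control pool (x axis) for the 18 keratins with a value on all 4 arrays (y axis, lowest average on top), with UCP arrays in red and particle-free arrays in blue and the mean of 4 as a black bar. Krt13, Krt5 and Krt14 lie left of the dotted line at 1.5-fold lower on all 4 arrays, Krt4, Krt23 and Krt19 are below 0 on all 4 arrays, and the other 12 keratins have at least 1 value on the other side of 0.

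Keratin genes next to each other on a chromosome had unlike values. In the order of protein-coding genes on chromosome 11, Krt13 is followed by Krt15, Krt19, Krt9 and Krt14, whose averages were 0.00, -0.44, -0.58 and -1.31. The 4 genes on its other side (Krt36, Krt35, Krt32 and Krt31) had no named probe on the arrays. On chromosome 15, Krt5 has Krt6a, Krt6b and Krt71 to Krt73 close by, which had no named probe either, and the nearest neighbour with values was Krt2.

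Genes of the outer layers of squamous epithelium had a low subset beside Krt13. Of 63 genes in a list of cornified envelope and squamous differentiation, 15 had values on all arrays, with a median of -0.57. Of these, 7 were below 0 on every array (14.1% of all genes) and 2 above 0, and 4 were at least 1.5-fold lower on every array (Lor, Sbsn, Calml3 and Spink5), against 1.02% of all genes. In this list 0 genes passed by limma. This list and the gene lists below were chosen with earlier results of these data known. The shares of all genes beside their counts are therefore no test.

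Sbsn, suprabasin of differentiating keratinocytes, lay at -2.30 and -2.50 on the UCP arrays, against -2.46 and -2.01 on the particle-free arrays. A second Sbsn probe disagreed, with -2.16 and -1.32 on the UCP arrays, against 1.92 on array 1 of particle-free air and no value on array 2. Lor, loricrin, the main protein of the cornified envelope, lay at -1.83 and -4.05 on the UCP arrays, against -1.77 and -2.76 on the particle-free arrays. Calml3, a calmodulin-like protein of epithelial cells, averaged -1.58 ± 0.27, and Spink5, a protease inhibitor of the cornified layer, -1.50 ± 0.15 (SD, n = 4 each). Their values in the 2 airs overlapped for Sbsn and Lor, as for Krt13, and Calml3 and Spink5 lay slightly less low in UCP air.

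The rest of the list was mixed. Klf4, a transcription factor of differentiating epithelium, averaged -0.82 ± 0.66, Ly6d, a surface protein of stratified epithelium, -0.84 ± 0.44, and Gsta4, a glutathione transferase, -0.57 ± 0.20 over 2 probes (SD, n = 4 each), all below 0 on every array. Near or above 0 lay others, and 1 gene (Cstb) was at least 1.5-fold higher on every array, against 1.16% of all genes. The transglutaminase Tgm1, which cross-links the envelope, averaged -0.14 ± 1.01, Rhcg, an ammonia transporter of squamous epithelium, -0.03 ± 0.25, and Cstb, a cysteine protease inhibitor, 0.72 ± 0.08 (SD, n = 4 each). Tgm3, another envelope transglutaminase, had no value on array 1 of particle-free air and lay at -1.89 and -2.35 on the UCP arrays, against -1.12 on the remaining particle-free array. Serpinb5, a serpin of epithelial cells, lay at 0.93 and 0.48 in UCP air, against -1.28 and -16.05 in particle-free air, where the last value is the lowest on that array.

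Basal cell genes other than Krt5 showed a smaller shift. Of 14 with values on all arrays, 4 were below 0 on every array (14.1% of all genes) and 1 above 0, with a median of -0.20. Those at least 1.5-fold lower on all arrays numbered 2, Krt14 and Perp (1.02% of all genes), and 1, Pdpn, was at least 1.5-fold higher on all arrays (1.16% of all genes). Sfn, the stratifin of squamous cells, averaged -0.96 ± 0.48, and Perp, a p63 target found in desmosomes, -0.86 ± 0.26 over its 2 probes (SD, n = 4 each), although 1 probe ran from -2.25 to -0.79 and the other from -0.65 to 0.61. Pdpn, podoplanin, which alveolar type 1 cells also carry, lay at 0.59 and 0.60 on the UCP arrays, against 1.08 and 1.21 on the particle-free arrays. Itgb4, the hemidesmosome integrin of basal cells, averaged -0.28 ± 0.32 (SD, n = 4). None of these genes passed by limma.

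Desmosomes anchor keratin filaments at cell junctions, and 5 of their genes had values on all arrays, with a median of -0.31. Jup, plakoglobin, lay at -1.05 and -0.98 on the UCP arrays, against -0.08 and -1.05 on the particle-free arrays. Pkp4 averaged -0.60 ± 0.16, Dsg1a -0.31 ± 0.39 and Pkp1 0.64 ± 0.16 (SD, n = 4 each), although a second Pkp1 probe had the opposite sign, at -0.27 and -1.26 on the UCP arrays, against -4.02 on array 2 of particle-free air and no value on array 1. Dsp, desmoplakin, had no value on array 1 of particle-free air. It lay at 0.365 and 0.723 on the UCP arrays, against 0.38 on the remaining particle-free array. The desmosome genes thus did not share the size of the change in Krt5 and Krt13, nor did all of them share its direction.

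The genes listed for oesophagus and tongue mucosa, without Krt13, had a median of -0.75 over 9 genes, of which 4 were below 0 on all arrays, against 14.1% of all genes. Besides Sbsn, Krt14 and Krt4, Ly6d lay at -1.37 and -0.94 on the UCP arrays, against -0.30 and -0.76 on the particle-free arrays. Upk3bl, a uroplakin-like gene, lay at -0.40 and 0.01 in UCP air, against -4.20 and -1.64 in particle-free air. Genes of epithelial stress and repair had a median of 0.20 over 11 genes, with none at least 1.5-fold lower on all arrays. In that list S100a8, a calcium-binding protein of neutrophils and keratinocytes, lay at 1.62 and 0.25 on the UCP arrays, against 0.94 and 1.20 on the particle-free arrays.

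Lung epithelium was covered by lists of its own. Alveolar genes had a median of 0.07 (10 genes), with the surfactant protein Sftpb at -0.88 ± 0.25 (SD, n = 4). The 14 genes of club and ciliated airway cells had a median of -0.22, and 3 of them were at least 1.5-fold lower on all arrays (Cyp2f2, Sec14l3 and Cyp4b1), against 1.02% of all genes. Cyp2f2, a club cell cytochrome, averaged -1.29 ± 0.39 and Sec14l3, a lipid-binding protein of ciliated cells, -1.17 ± 0.16 (SD, n = 4 each). Foxj1, the ciliated cell factor, averaged 0.01 ± 0.28 over 3 probes, and Epcam, a marker of epithelium in general, 0.20 ± 0.14 over 2 probes (SD, n = 4 each). The Epcam probes disagreed, 1 running from -0.49 to 0.20 and the other from 0.24 to 0.90.

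**Figure D3:**
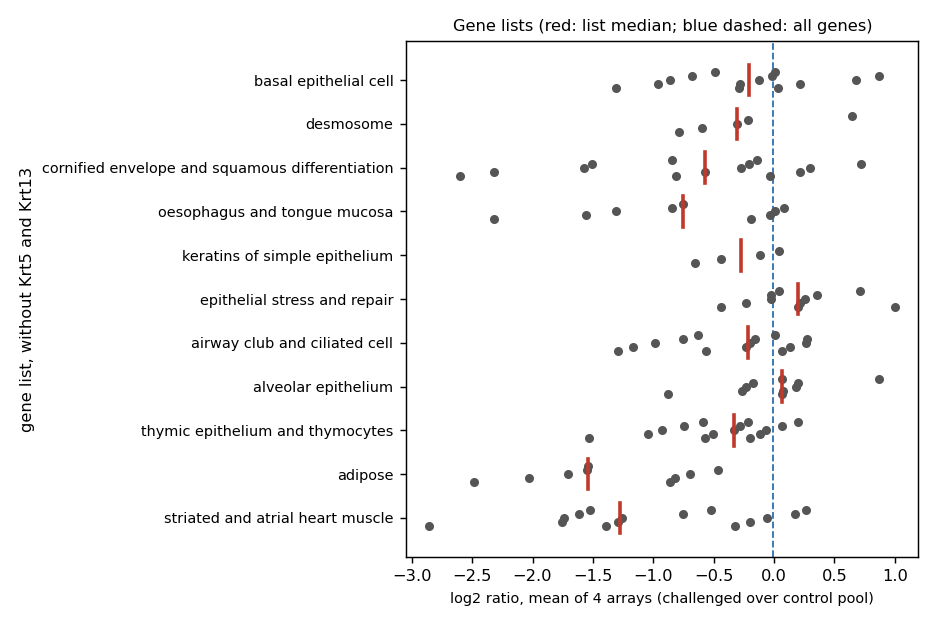
Averaged log2 ratio over the 4 arrays (x axis) of each gene (dots) in the gene lists (y axis), with Krt5 and Krt13 left out, the list median in red and the median of all 9153 genes (-0.01) as a blue dashed line. Serpinb5 and Tnni2, which hold a value at an array's limit, are not drawn but count in the medians. The lists of fat (median -1.54), striated muscle (-1.28) and oesophagus and tongue (-0.75) lie lowest.

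Some genes of other tissues that lie beside the lung were low, as Krt5 and Krt13 were. The lists of these tissues were chosen with earlier results of these data known. The shares of all genes beside their counts are therefore no test. Fat genes had a median of -1.54 over 9 genes, all 9 below 0 in the average (4733 of 9153 genes were) and 5 at least 1.5-fold lower on every array (1.02% of all genes). Their medians were -2.01 in UCP air and -1.04 in particle-free air, and 7 of the 9 were lower on both UCP arrays than on both particle-free arrays, as were Krt5 and 15.4% of all genes. Striated and atrial muscle genes had medians of -1.66 in UCP air and -0.40 in particle-free air. Of the 16, 14 averaged below 0, and 3 were at least 1.5-fold lower on every array (1.02% of all genes). Both UCP arrays lay below both particle-free arrays for 9 of the 16 (15.4% of all genes). Thymus genes had medians of -0.48 in UCP air and -0.27 in particle-free air. Of these 15 genes, 13 averaged below 0, and 1 was at least 1.5-fold lower on every array (1.02% of all genes). For 6 of the 15, both UCP arrays lay below both particle-free arrays (15.4% of all genes). Other genes of these lists had the higher mean in UCP air, 2 of 9 for fat, 6 of 16 for muscle and 3 of 15 for thymus, against 4682 of 9153 genes. Summed levels cannot be given from ratios, and the part of these tissues in the keratin values was not tested.

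The lists thus held genes that differed between the airs in the direction of Krt5 and genes that differed in the other. Gpd1, a glycerol phosphate enzyme abundant in fat, averaged -3.25 ± 0.25 in UCP air and -1.71 ± 0.18 in particle-free air over its 2 probes (SD, n = 2 each). Myl7, an atrial myosin light chain, averaged -2.83 ± 0.24 in UCP air and -0.64 ± 0.10 in particle-free air (SD, n = 2 each). Prss16, a protease of thymic epithelium, averaged -2.25 ± 0.94 in UCP air and -0.83 ± 0.11 in particle-free air (SD, n = 2 each). Dntt, of the same thymus list, lay at -1.60 and -1.69 in UCP air, against -0.53 and -0.36 in particle-free air. Over 2 probes, Cd8a lay at -1.61 and -1.56 in UCP air, against -0.26 and -0.295 in particle-free air. A further Cd8a probe had 1 value, 1.72 on array 2 of UCP air. Satb1, over 2 probes, overlapped between the airs, at -1.54 and -0.445 in UCP air, against -0.51 and -0.48 in particle-free air. In UCP air 3 of the 15 thymus genes had the higher mean. Nppa, the atrial natriuretic peptide, lay at -5.72 and -5.91 on the UCP arrays, against 0.38 and -0.17 on the particle-free arrays, so the atrial genes differed among themselves in particle-free air. In the other direction, Tnnc2, a troponin of fast skeletal muscle, averaged 0.25 ± 0.21 in UCP air and -1.76 ± 0.12 in particle-free air (SD, n = 2 each). Plin1, a coat protein of fat droplets, averaged -0.14 ± 0.61 in UCP air and -1.24 ± 0.73 in particle-free air, and Aire, a regulator of thymic epithelium, 0.12 ± 0.14 in UCP air and -0.56 ± 0.37 in particle-free air (SD, n = 2 each). Foxn1, the factor that defines thymic epithelium, where Krt5 is also made, averaged -0.07 ± 0.54 over 2 probes (SD, n = 4). These probes disagreed, 1 running from -1.61 to 0.74 and the other from -0.49 to 0.27. Psmb11, of the same thymus list, had no value on array 2 of particle-free air. It lay at 1.78 and 3.28 on the UCP arrays, against 1.38 on array 1 of particle-free air.

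**Figure D4:**
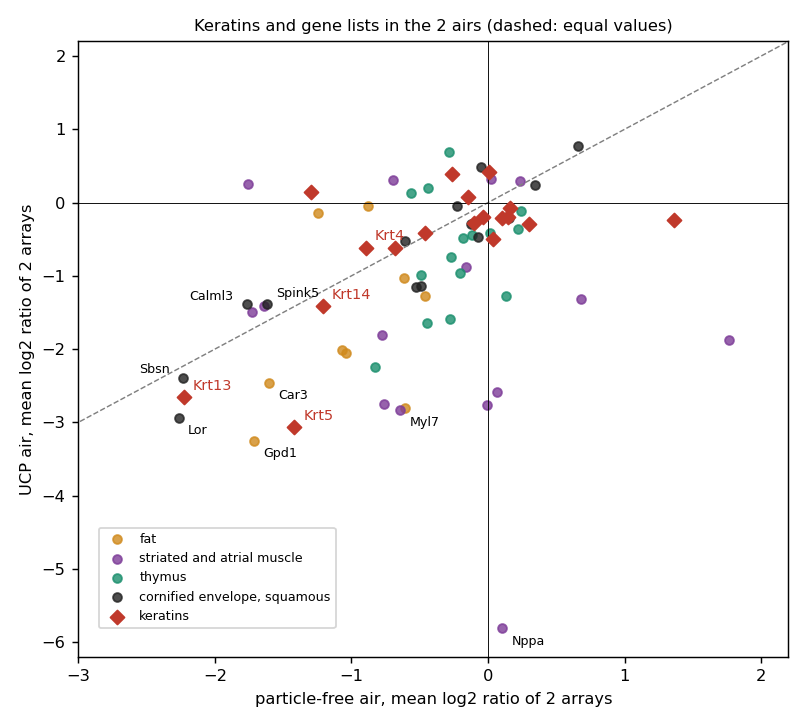
Mean log2 ratio of the 2 UCP arrays (y axis) against that of the 2 particle-free arrays (x axis) for keratins (red diamonds) and for genes of fat, muscle, thymus and cornified epithelium, with a dashed line of equal values. Krt13 lies near the line (-2.66 in UCP air, -2.23 in particle-free air) close to Sbsn and Lor, and Krt5 lies below it (-3.07 in UCP air, -1.42 in particle-free air) close to Gpd1 and Car3. Serpinb5 and Tnni2, which hold a value at an array's limit, are not drawn.

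Likeness to each member was measured as the root mean square difference of log2 ratios over the 4 arrays, among 9153 genes with probes of a gene averaged. The 10 genes nearest to Krt13 were, in order, Eno1b, Sbsn, Car3, Ada, Lce3f, Myh8, Krt5, Gpd1, Cd164 and Lor, at 0.30 to 0.91. Among them Sbsn, Lce3f (a late cornified envelope protein) and Lor belong to cornified epithelium. Ada, adenosine deaminase, which is abundant in the keratinized lining of the mouse upper digestive tract, lay at -2.61 and -2.18 on the UCP arrays, against -1.78 and -1.56 on the particle-free arrays. Eno1b is a near-identical copy of the enolase Eno1, so its probe may not tell them apart. Lce3f lay at -1.79 and -2.30 on the UCP arrays, against -1.74 and -2.17 on the particle-free arrays. Myh8 is a skeletal muscle myosin, and Cd164 is a sialomucin of many cell types.

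The 10 genes nearest to Krt5 were Gpd1, Car3, Myl4, Ada, Myl7, Krt13, Ucp1, Cox8b, Asprv1 and Ankrd1, at 0.34 to 0.77. Here Gpd1, Car3 and Ucp1 are known from fat, Myl4 and Myl7 from the atria, and Ankrd1 and Cox8b from heart muscle, Cox8b from brown fat as well. Asprv1, a protease of the upper epidermis, lay at -3.04 and -1.69 on the UCP arrays, against -1.95 and -1.0 on the particle-free arrays. The 2 rankings shared Car3, Ada and Gpd1, and each member stood in the ranking of the other, at place 7 for Krt5 and place 6 for Krt13, with a distance of 0.65. This distance counts how low the values lie, and both members were picked for low averages. Their nearness and the shared genes are therefore no test of a common pattern.

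**Figure D5:**
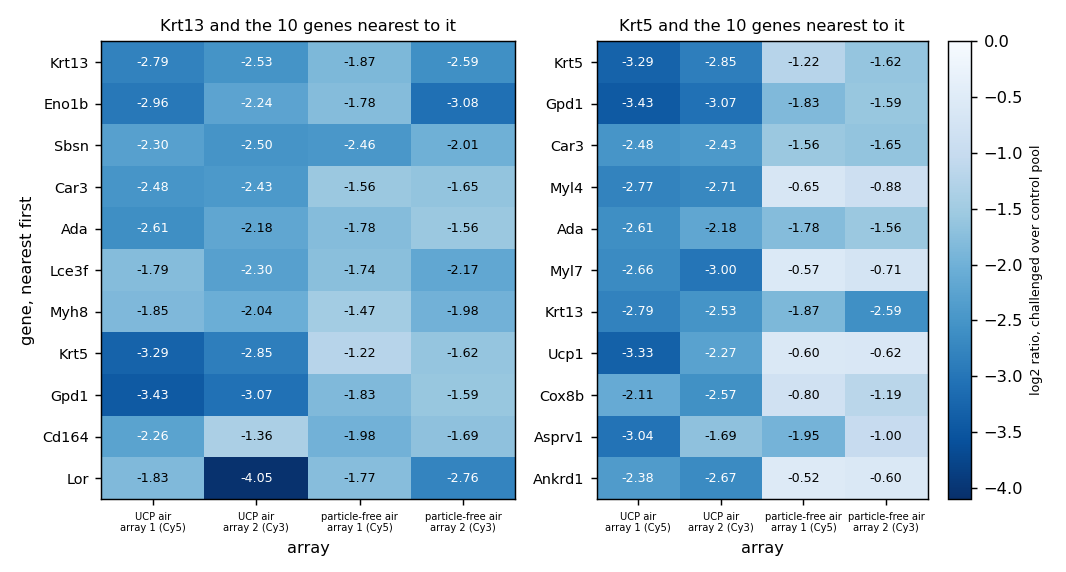
Log2 ratios on each array (columns, UCP air left of particle-free air) for Krt13 (left panel) and Krt5 (right panel) and the 10 genes nearest to each (rows, nearest first), with darker blue for lower values. Krt13 and its nearest genes are low on all 4 arrays, while most of the genes nearest to Krt5 are darker on the UCP arrays than on the particle-free arrays.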

How the data were processed

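Lung RNA of 4 challenged samples was compared with pooled control RNA on dual-colour arrays, after indirect Cy3 or Cy5 labelling per the labels' protocols. The authors deposited 1 log2 ratio of the channels per probe and array. For scanner, image software, normalization and direction, the entry is: not given in the sources used here. On each array the most extreme value was shared by 20 to 58 probes, with a plus sign where challenged lung was in Cy5 and a minus sign where it was in Cy3. The deposited values thus run the same way on all arrays. Pearson correlations between arrays over all probes were 0.06 to 0.14. Arrays of one air were no more alike than arrays of different airs. The UCP pair correlated at 0.14 and the particle-free pair at 0.07, against 0.06 to 0.14 across the airs. Spearman correlations were 0.25 and 0.12 within the airs, against 0.16 to 0.28 across them. Values were used as deposited, with no filter on dim probes.

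Of 20205 probes, 13852 had 1 gene symbol in the platform annotation, 0 had several and 6353 had none, and 13849 symbols were found through the Entrez identifier. Limma 3.58.1 (R 4.3.3) was fitted to the 18160 probes with a value on all 4 arrays, with 1 coefficient per air, eBayes, two-sided tests and Benjamini-Hochberg adjustment at 0.05. The fit was also run on simulated data with independent normal errors and planted shifts, and the outcome is not given here. Those data held no dye effect and no shared control pool, so they cannot test the fit for these. The 14 gene lists, which the report does not print in full, and the members were chosen with earlier results of these data known. Named genes were all keratins, up to 4 genes per list by the largest absolute averaged log2 ratio, and the 10 nearest genes of each member. Some list genes picked by that rule are not given here, among them Fabp4 and Bpifa1. Spink5, Klf4, Gsta4, Tnnc2, Plin1, Aire, Tgm1, Tgm3, Rhcg, Cstb, Perp, Itgb4, Ly6d, Foxj1, Epcam and Foxn1 were named after their values were seen. So were Psmb11 and Dsp. Promoter windows are RefSeq's, on GRCm38.p6. Alternatives were other centring and scaling, the replicate number as a block, probes of a gene averaged, other filters and priors, and leaving out each array.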

Additional observations from a re-analysis of the deposited data

Results flagged for a closer look

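Serpinb5, a serpin of epithelial cells, had a UCP minus particle-free difference of 9.37 on the log2 scale, because both UCP arrays lay above 0 (0.93 and 0.48) and both particle-free arrays below it (-1.28 and -16.05). It did not pass in limma's fit (standard error 5.03, unadjusted p = 0.131, adjusted p = 0.984), and it rests on array 2 of particle-free air, whose value is the lowest that array holds and is shared by 44 probes. No keratin with a value on all 4 arrays had all arrays of the airs on opposite sides of 0.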

How the results depend on the processing

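Of the recomputed main values and counts, 99 stayed within the spread or on the same side of the threshold, and 24 moved. Krt13 averaged -2.62 to -2.26 and Krt5 -2.35 to -2.14 over both airs without each array in turn. With arrays centred and scaled, Krt13 moved to -2.93 and Krt5 to -3.39 in UCP air, from -2.66 and -3.07. The difference for Krt5 ran from -2.14 to -1.43 and never passed (adjusted p 0.460 to 1.0), and that for Krt13 from -0.94 to -0.07 (0.665 to 1.0). With the replicate number as a block, which is also the dye, the adjusted p of the Krt5 difference was 0.960. Same-numbered arrays deviated with a correlation of 0.05, and the labels do not say that the numbers pair samples.

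Probes past the threshold in the averaged effect numbered 1, against 0 with the replicate block, 2 with scaled arrays, 9 with probes of a gene averaged and 0 to 36 without each array. In particle-free air there were 0, against 10 with at least 3 values a probe, 1 with probes averaged and 0 to 29 without each array. In UCP air there were 0, against 2 with probes averaged and 0 to 38 without each array, and the difference had 0, against 0 to 34. Leaving out an array leaves 1 air with a lone sample, assumed to vary like the other air. Probes at least 1.5-fold lower on all arrays numbered 218, against 72 at 2-fold, 93 genes with probes averaged and 323 to 411 without each array. Keratins in that count numbered 3, and 2 to 4 over all alternatives.

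None of the 16 other keratins passed under any of 160 alternative values (lowest adjusted p = 0.137). The sign turned in 14 of them. Krt15 lay at -0.013 with scaled arrays, and without each array Krt15 ran from -0.20 to 0.21, Krt10 from -0.57 to 0.19, Krt7 from -0.25 to 0.023, Krt77 from -0.32 to 0.22, Krt42 from -0.16 to 0.087, Krt16 from -0.16 to 0.11, Krt18 from -0.083 to 0.16, Krt88 from -0.20 to 0.33 and Krt2 from -0.047 to 1.17. The causes were not tested.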
